A study of Mus musculus with 6 samples.

Results

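The genes described here carry lipid from circulating lipoproteins into fat cells and let glycerol back out. The list names 10 genes, given by symbol: Lpl, Gpihbp1, Cd36, Vldlr, Lrp1, Angptl4, Lipg, Aqp7, Apoe and Pltp. It was drawn up with earlier results of these data known. On the array 9 of the 10 had a probe set with that gene as its only symbol, which gave 20 probe sets of 22626 tested. Gpihbp1, the endothelial protein that holds lipoprotein lipase on the capillary wall, was not analysed here. A probe set is a group of short array probes read as 1 value, and where a gene had several, the one with the highest mean over all arrays is called its leading probe set.

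Lipoprotein lipase, the product of Lpl, splits the triglyceride of circulating lipoproteins at the capillary wall, and Angptl4 is a secreted inhibitor of it. The fatty acids that are freed enter cells with the help of Cd36, while Vldlr and Lrp1 take up or tether whole particles and remnants through apolipoprotein E. Brown adipose tissue is an active site of this clearance, and Aqp7 is the main glycerol channel of adipocytes.

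The tissue was brown adipose tissue from mice aged 3.5 months on a mixed C57BL6 and 129 background, all kept on high fat food for 3 months. Control mice were YY1flox/flox, and YY1bKO mice were YY1flox/flox with Ucp1Cre, so both groups carried the floxed alleles and Cre was present in the YY1bKO group alone. Ucp1 drives this Cre in brown adipocytes, and other cells of the tissue are not its target. Each group had 3 arrays. Whether the 3 arrays of a group are separate animals is not in the labels, so p-values reflect array-to-array spread, part of which may be technical.

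Yy1 itself was lower in YY1bKO tissue in 3 of its 4 probe sets, at a log2 difference of -1.43 in the leading one (limma adjusted p = 0.000887). The brown adipocyte markers Ucp1 and Adipoq were bright in both groups, with mean log2 intensities of 13.92 and 13.61 in control and 13.78 and 13.42 in YY1bKO tissue. Of the 15 probe sets of the 9 measured brown adipocyte markers, 4 were called higher and 0 lower: 3 of Ppargc1a, a coactivator of mitochondrial genes (1.09, 0.99 and 0.87), and 1 of Elovl3, a fatty acid elongase (1.14). By leading probe set, 6 of the 9 estimates lay below 0, with a median of -0.14 and a lowest value of -0.87. With limma's trend and robust fitting, 3 of the 15 were called higher and 2 lower. The summed log2 level of these markers was 15.96 to 16.13 in control and 15.95 to 15.99 in YY1bKO arrays. The Elovl3 call was lost without control replicate 1 or any YY1bKO array (adjusted p up to 0.131), and the smallest Ppargc1a call without control replicate 1 or YY1bKO replicate 1 (adjusted p up to 0.0553). Control replicate 2 stood apart from the other arrays. Its 12 skeletal muscle markers summed to a log2 intensity of 17.35, against 15.05 and 14.76 in the other controls and 15.91 to 16.33 in YY1bKO arrays. Results below whose call changes without that array are given both ways. Over all probe sets, 16% were called in either direction at an adjusted p under 0.05, 7.16% lower and 8.83% higher, and the median log2 fold change was 0.03.

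Members of the list, which include the lipase inhibitor Angptl4 and the glycerol channel Aqp7, were lower or showed no called difference in YY1bKO tissue. Of the 20 probe sets, 8 were called lower and 0 higher by limma, and 1 was higher and 9 were lower at an unadjusted p under 0.05. Of all 22626 probe sets, 3817 were higher and 3015 lower at that unadjusted threshold. Those 8 belong to Vldlr (4 probe sets), Aqp7, Angptl4, Lrp1 and Cd36 (1 each), and probe sets of 1 gene are not independent. Counted by leading probe set, 4 of the 9 genes were lower, where 7.78% of all genes were. The members' median log2 fold change was -0.25 over the 20 probe sets. The groups did not overlap in 9 probe sets, where 36.2% of all probe sets had no overlap. In 8 of these every YY1bKO array lay below every control array, which held for 15.1% of all probe sets, and in 1 every YY1bKO array lay above, which held for 21.1%. Without control replicate 2, 9 member probe sets were called lower and 0 higher. In that fit 2473 of all 22626 probe sets were called lower and 2607 higher, 22.5% in either direction. Without any 1 of the YY1bKO arrays 5 member probe sets were called lower. In those fits 699 to 773 of all 22626 probe sets were called lower, against 1619 with all arrays. In whole tissue, fewer cells of a type and less RNA per cell cannot be told apart.

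**Figure D1:**
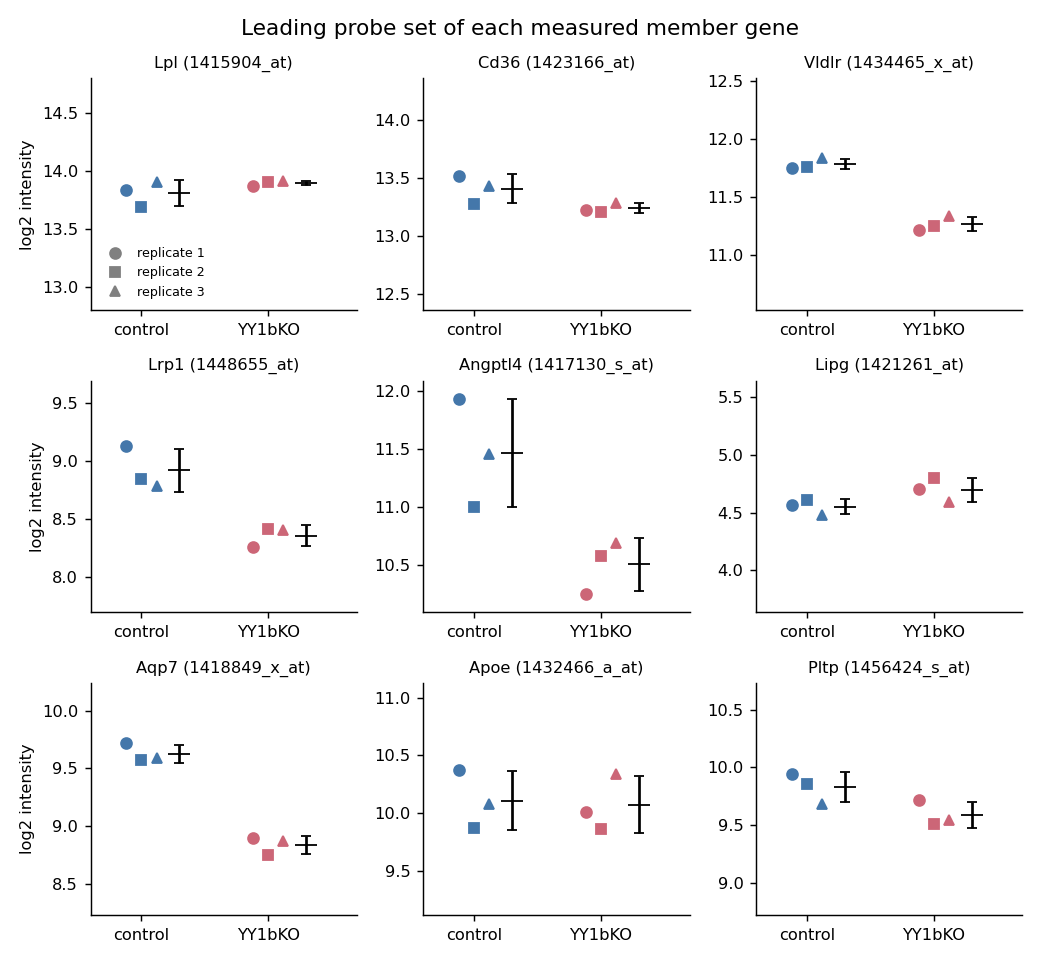
Log2 intensity (vertical axis, 2 log2 units in every panel) of the leading probe set of each of the 9 measured member genes in 3 control (blue) and 3 YY1bKO (red) arrays; the marker shape is the replicate, and the black dash and bar are the mean and SD. The groups are apart in Vldlr, Lrp1, Angptl4 and Aqp7 and overlap in Lpl, Cd36, Lipg, Apoe and Pltp.

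Vldlr, the receptor for very low density lipoprotein, was the member with the most concordant fall. Its leading probe set read 11.75, 11.76 and 11.83 in the control arrays and 11.21, 11.24 and 11.33 in the YY1bKO arrays, in log2 intensity. Every YY1bKO array lay below every control array, with a gap of 0.42 between the groups, while the values within a group spread over 0.08 and 0.12. The mean difference was -0.52 on the log2 scale (SE 0.08), a level 1.43-fold lower (limma adjusted p = 0.00747). The gene lies on chromosome 19 at 27216480 to 27254231 (GRCm38.p6).

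The other Vldlr probe sets gave changes of similar size. Probe set 1417900_a_at read 10.35, 10.33 and 10.51 in control and 9.67, 9.68 and 9.81 in YY1bKO arrays, again without overlap. With 1442169_at and 1451156_s_at, the 3 log2 fold changes were -0.68 ± 0.09, -0.55 ± 0.08 and -0.57 ± 0.08 (SE, adjusted p = 0.00488, 0.00625 and 0.00512). In the mean over the 4 probe sets, Vldlr fell by 0.58 on the log2 scale (adjusted p = 0.004 over all genes). All 4 stayed called when any single array was left out, with adjusted p up to 0.0395.

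Lrp1 (chromosome 10, 127538157 to 127621148), a large endocytic receptor that clears remnant particles, was lower in its 1 probe set. The control arrays read 9.13, 8.84 and 8.79, and the YY1bKO arrays 8.26, 8.41 and 8.41. All YY1bKO values lay below all control values, and control replicate 1 was the highest of the 6 arrays. The level was 1.48-fold lower, at -0.56 on the log2 scale (SE 0.11, adjusted p = 0.0195). Lrp1 was no longer called when YY1bKO replicate 1 (-0.51, adjusted p = 0.0774), 2 (-0.59, 0.0639) or 3 (-0.59, 0.0632) was left out.

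Aqp7 (chromosome 4, 41033074 to 41048237), the glycerol channel of adipocytes, was lower in 1 of its 2 probe sets. The brighter one, 1418849_x_at, read 9.72, 9.58 and 9.59 in control and 8.90, 8.75 and 8.87 in YY1bKO arrays. This was the widest separation among the members, with a gap of 0.67 between groups whose own values spread over 0.14 and 0.15. It was 1.72-fold lower, a mean log2 difference of -0.78 (SE 0.08, adjusted p = 0.00267) with a 95% confidence interval from -0.98 to -0.59. The call held without any single array, with adjusted p up to 0.0178.

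The second Aqp7 probe set, 1418848_at, was not called. Control arrays read 7.99, 7.37 and 7.99, and YY1bKO arrays 7.73, 7.80 and 7.58. The YY1bKO values lay inside the control range, whose low end was control replicate 2. Its log2 fold change was -0.08 ± 0.18 (SE, adjusted p = 0.81), and -0.29 without that array (adjusted p = 0.0732). The difference between the 2 probe sets on each array was 1.60 to 2.21 in control and 0.96 to 1.30 in YY1bKO tissue, again without overlap (p = 0.1 in a two-sided exact permutation test, which with 3 arrays a group can go no lower). An Affymetrix name ending in x_at marks a probe set with probes that may also bind other transcripts. Others share that ending, among them the leading Vldlr probe set, 1434465_x_at, and the Scarb1 probe sets given below. Both Aqp7 probe sets carry the same target accession. In the mean over both Aqp7 probe sets, the gene fell by 0.43 on the log2 scale (adjusted p = 0.0417 over all genes).

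**Figure D2:**
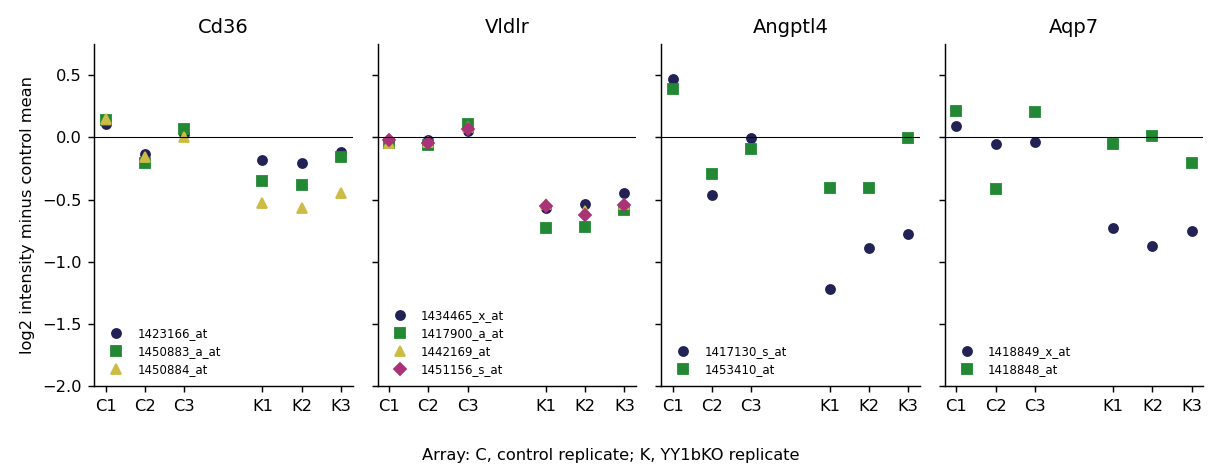
Log2 intensity of each probe set minus its own control mean (vertical axis) on each array (C1 to C3, control; K1 to K3, YY1bKO) for the members with a called probe set and more than 1 probe set. The 4 Vldlr probe sets fall together, the YY1bKO values of the 3 Cd36 probe sets lie at different depths below their control means, and Angptl4 and Aqp7 each have 1 probe set that separates the groups and 1 that does not.

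Angptl4 (chromosome 17, 33774900 to 33781575), which inactivates lipoprotein lipase and is induced in adipose tissue by fasting, had the largest estimate among the members. Its leading probe set read 11.93, 11.00 and 11.46 in control arrays. In YY1bKO arrays it read 10.25, 10.57 and 10.69. The groups were 0.31 apart, and the control values themselves spread over 0.93. The level was 1.95-fold lower, at -0.96 on the log2 scale (SE 0.24, adjusted p = 0.0374), with a wide 95% confidence interval from -1.53 to -0.40.

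This call depended on single arrays. Without control replicate 2, the lowest control, Angptl4 fell by 1.19 (adjusted p = 0.00553). It was not called without control replicate 1 (-0.73, adjusted p = 0.0778), control replicate 3 (-0.96, 0.0841), YY1bKO replicate 1 (-0.83, 0.125), YY1bKO replicate 2 (-1.0, 0.105) or YY1bKO replicate 3 (-1.05, 0.0831). The second probe set was dim, with means of 3.17 in control and 2.90 in YY1bKO tissue, overlapping groups and a log2 difference of -0.27 (SE 0.20, adjusted p = 0.409). In the mean over both, Angptl4 was not called (-0.62, adjusted p = 0.0997).

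Cd36 (chromosome 5, 17781690 to 17888959), the fatty acid translocase of adipocytes and capillary endothelium, gave estimates that differed between its 3 probe sets. The brightest probe set, 1423166_at, read 13.52, 13.28 and 13.44 in control and 13.23, 13.21 and 13.29 in YY1bKO arrays. These groups overlapped by a little through control replicate 2, and the log2 fold change was -0.17 ± 0.09 (SE, adjusted p = 0.26). In the second, 1450883_a_at, it was -0.30 ± 0.12 (adjusted p = 0.143), and -0.40 without control replicate 2 (adjusted p = 0.0297).

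The dimmest of the 3, 1450884_at, was called lower. It read 11.99, 11.69 and 11.85 in control arrays and 11.32, 11.28 and 11.40 in YY1bKO arrays. Control and YY1bKO values lay 0.29 apart with no overlap. Its log2 fold change was -0.51 ± 0.10 (SE, adjusted p = 0.0174). Leaving out control replicate 1 (adjusted p = 0.0545) or YY1bKO replicate 1 (0.0685), 2 (0.0723) or 3 (0.0534) ended the call. The mean over the 3 probe sets was not called (-0.33, adjusted p = 0.0642). All 3 carry the same target accession.

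Lpl (chromosome 8, 68880555 to 68906932), the lipase itself, showed no called difference. Its leading probe set read 13.83, 13.69 and 13.91 in control and 13.87, 13.90 and 13.91 in YY1bKO arrays. The groups overlapped, with control replicate 2 lowest. The mean log2 difference was 0.09 (SE 0.09, adjusted p = 0.559), and the 95% confidence interval ran from 92.2% to 122% of the control level. The second Lpl probe set gave 0.16 ± 0.18 (adjusted p = 0.608), with an interval from 82.9% to 151%, and -0.04 without control replicate 2. The leading probe set lies near the top of the scale, since the brightest probe set of an array read 14.32 to 14.37, and the second lies lower at means of 12.17 and 12.33.

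Lipg, the endothelial lipase, which acts mainly on high density lipoprotein, was dim in all 3 probe sets, with control means of 3.97 to 4.55. Means this far below the median of all probe sets, 6.48, do not show that the transcript was detected. No Lipg probe set was called. In 1450188_s_at every YY1bKO array (4.38, 4.33 and 4.46) lay above every control array (3.95, 3.64 and 4.33), by a gap of 0.0038. Its log2 fold change was 0.42 ± 0.17 (SE, adjusted p = 0.149), and 0.60 without control replicate 3 (adjusted p = 0.0327).

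Apoe (chromosome 7, 19696244 to 19701310), the apolipoprotein through which remnants bind their receptors, read 10.38, 9.87 and 10.08 in control and 10.02, 9.87 and 10.34 in YY1bKO arrays. The groups covered the same range, with a log2 difference of -0.04 (SE 0.17, adjusted p = 0.918) and a 95% confidence interval from 74.0% to 129% of control. Pltp (chromosome 2, 164839518 to 164857708), the phospholipid transfer protein, read 9.94, 9.86 and 9.69 in control and 9.72, 9.51 and 9.55 in YY1bKO arrays. Its log2 fold change was -0.24 ± 0.10 (SE, adjusted p = 0.172) in this leading probe set and 0.01 ± 0.10 (adjusted p = 0.967) in the other.

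**Figure D3:**
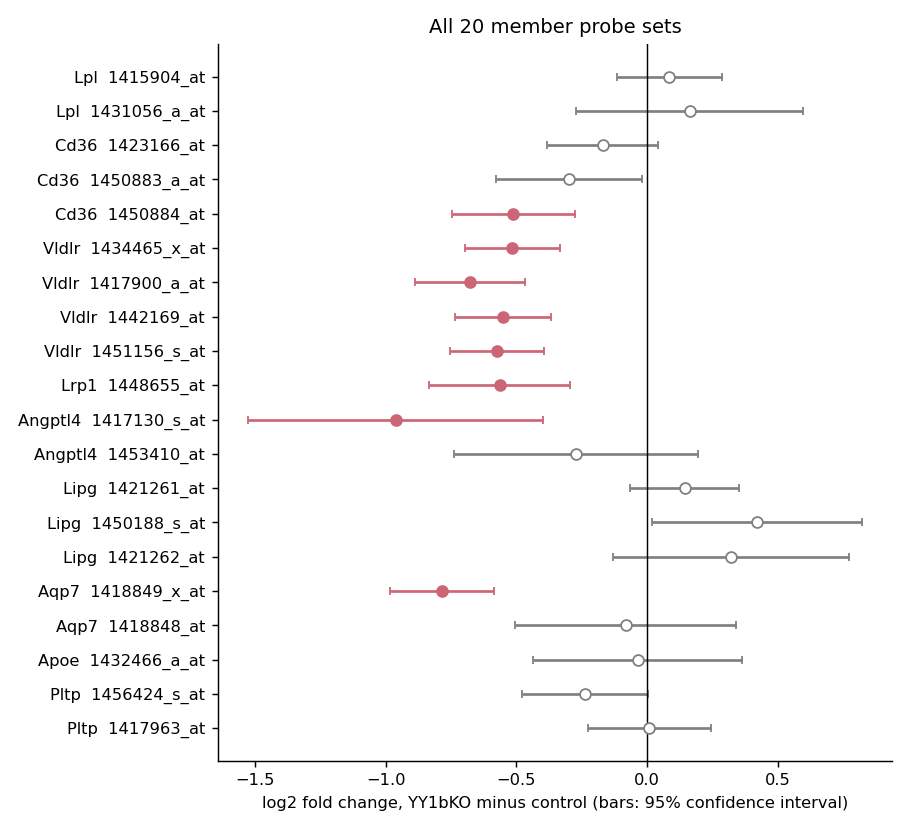
Log2 fold change of YY1bKO against control (horizontal axis) with its 95% confidence interval for each of the 20 member probe sets; filled red points are called lower at an adjusted p under 0.05, open points are not called. Intervals of Lpl, Apoe and Lipg 1421261_at include 0, those of the 4 Vldlr probe sets do not, and that of Angptl4 1417130_s_at is the widest among the called ones.

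**Figure D4:**
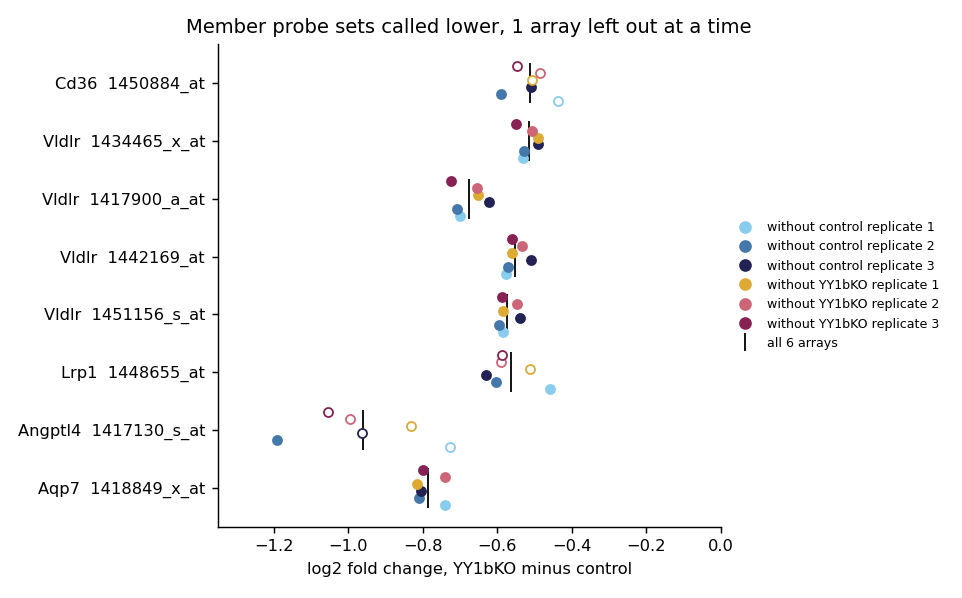
Log2 fold change (horizontal axis) of the 8 member probe sets called lower, refitted with 1 array left out (coloured points, filled where still called) beside the value from all 6 arrays (black line). The 4 Vldlr probe sets and Aqp7 stay filled throughout, and Angptl4 is filled without control replicate 2 only.

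Promoter sequences of members are shown because the factor removed binds DNA. RefSeq windows of the 250 bases before an annotated start (GRCm38.p6) were held for 6 of the 9 measured genes, 10 windows in all. Both strands were searched for the YY1 core CCATNTT, which 12.4% of all 32851 windows held. They were also searched for AGGTCA, a single nuclear receptor motif, which 14.0% held. Spaced pairs of AGGTCA were not searched for. No 2 matches overlapped in the windows shown. A match is a description of the letters and not evidence of binding, and windows of 1 gene can overlap. Matches are in capitals below.
Aqp7, chr4:41047963-41048212, minus strand: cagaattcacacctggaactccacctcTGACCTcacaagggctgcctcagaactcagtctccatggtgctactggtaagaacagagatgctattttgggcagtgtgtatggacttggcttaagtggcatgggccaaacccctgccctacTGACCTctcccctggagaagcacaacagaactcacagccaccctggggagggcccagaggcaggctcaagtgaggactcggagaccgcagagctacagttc
Cd36, chr5:17835897-17836146, minus strand: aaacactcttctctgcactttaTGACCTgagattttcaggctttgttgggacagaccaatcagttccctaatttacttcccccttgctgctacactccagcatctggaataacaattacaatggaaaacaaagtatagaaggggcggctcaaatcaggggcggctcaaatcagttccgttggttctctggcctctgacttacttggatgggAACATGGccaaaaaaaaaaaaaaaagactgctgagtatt
Vldlr, chr19:27216234-27216483, plus strand: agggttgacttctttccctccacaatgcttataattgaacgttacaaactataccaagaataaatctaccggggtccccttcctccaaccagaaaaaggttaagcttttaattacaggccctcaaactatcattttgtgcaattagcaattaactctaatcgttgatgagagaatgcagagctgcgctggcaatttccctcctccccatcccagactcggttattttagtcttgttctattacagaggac

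The Aqp7 window held 2 separate copies of AGGTCA on the opposite strand, starting 223 and 101 bases before the start, and no YY1 core. Its second window, before an upstream start, held 1 of these again. The Cd36 window held 1 YY1 core, 39 bases before the start, and 1 copy of AGGTCA at 228 bases, both on the opposite strand. That start lies inside the Cd36 span given above, and no window at the span's upstream end, 17888959, was searched. Vldlr, the member with 4 called probe sets, had neither motif in either of its 2 windows, and Lrp1 and Pltp had neither in theirs. Among the 10 member windows, 2 held the YY1 core, those of Cd36 and Apoe, and 3 held AGGTCA.

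Genes that act on the same proteins were taken from 6 lists, whose 112 probe sets stood for 63 genes. Of these probe sets, 18 were called lower and 7 higher, where 7.16% of all probe sets were lower and 8.83% higher. The median log2 fold change of the 112 was -0.04, beside 0.03 over all probe sets. In the list on control and maturation of the lipase, 5 of 15 genes were lower and 1 higher by leading probe set. Over all genes 7.78% were lower. Of the 31 probe sets of this list 11 were lower and 1 higher. Every Lrpap1 probe set is among the 11, and probe sets of 1 gene are not independent. Over the 6 lists together, 24 probe sets were lower without control replicate 2 and 9 to 11 without any other single array.

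Lmf1, an endoplasmic reticulum protein needed for lipoprotein lipase to fold and become active, fell the most in these lists. It read 7.88, 7.62 and 7.94 in control and 6.35, 6.34 and 6.28 in YY1bKO arrays. The lowest control array lay well above the highest YY1bKO array, and the level was 2.81-fold lower, at -1.49 on the log2 scale (SE 0.10, adjusted p = 0.00074). Lmf1 stayed called without any single array, with adjusted p up to 0.00853. Lpl itself, as given above, showed no called difference.

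Lrpap1 encodes the receptor-associated protein, a chaperone that keeps Lrp1, Vldlr and related receptors from binding ligands before they reach the surface. Its leading probe set read 9.80, 9.73 and 9.62 in control and 8.91, 8.84 and 8.78 in YY1bKO arrays. All 4 Lrpap1 probe sets were called lower, with log2 fold changes from -1.14 to -0.84, and each stayed called without any single array. In their leading probe sets, Lrpap1 was at 54.6% of control, Lrp1 at 67.7% and Vldlr at 69.9%. A link between these falls was not tested.

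Pcsk6, a proprotein convertase that can cleave lipoprotein lipase and endothelial lipase, was 1.92-fold lower (-0.94 ± 0.10, SE, adjusted p = 0.00252). Of those named from their values, Furin, a convertase of the same family, gave -0.36 (adjusted p = 0.0375), called without control replicate 2 and lost without any other array. Apoc1 gave -0.50 (adjusted p = 0.0267), likewise called without control replicate 2 and lost without any other array. Apoc3, an apolipoprotein that slows lipolysis and is made mainly in liver, rose by 0.95 on the log2 scale (adjusted p = 0.0135) from a dim control mean of 5.37, and was not called when YY1bKO replicate 1 (adjusted p = 0.0515) or 2 (0.0592) was left out.

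Of 10 genes on the list of other receptors and their regulators, 1 was higher and 0 lower by leading probe set. Over all genes 17.5% were called in either direction. The higher one was Lrp10 with 0.34 (adjusted p = 0.0497, lost without any array except control replicate 3). Scarb1, the high density lipoprotein receptor, had -0.72 in its leading probe set (adjusted p = 0.0509) and -0.74 in another that was called (adjusted p = 0.0217), the latter call being lost when control replicate 3 or a single YY1bKO array was left out (adjusted p up to 0.0814). Without control replicate 2 its leading probe set was called too (-0.93, adjusted p = 0.00353). The mean over the Scarb1 probe sets was called with all arrays (-0.65, adjusted p = 0.0355 over all genes). Lsr and Lrp8, 2 further receptors of triglyceride-rich particles, were dim and gave 0.32 and 0.17 (adjusted p = 0.0964 and 0.283).

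Among other lipases, apolipoproteins and lipid transfer genes, 5 of 16 probe sets were higher and 0 lower, where 8.83% of all probe sets were higher. The list median was 0.62 over probe sets and 0.17 over the 9 leading ones. Mttp, which loads triglyceride onto apolipoprotein B particles and lipid onto CD1 molecules, read 5.53, 5.71 and 5.50 in control and 7.56, 7.29 and 7.43 in YY1bKO arrays. All 3 control values were under the dim limit of 6.48, so the fold rests on a dim control level. No array of one group came near the other, and the measured level was 3.58-fold higher, at 1.84 on the log2 scale (SE 0.10, adjusted p = 0.000476), while its second, dim probe set rose by 1.30. Abca1, the pump that passes cholesterol to lipid-poor apolipoprotein A-I, was 1.84-fold higher (0.88 ± 0.15, SE, adjusted p = 0.0116). Both genes stayed called in their leading probe set without any single array. Apoa1, the main protein of high density lipoprotein, was dim in all 4 probe sets and gave 0.75 in the leading one (adjusted p = 0.082), with 2 of the others called higher (0.70 and 1.18), the former lost without any array except YY1bKO replicate 3. The mean over the Apoa1 probe sets, all dim, was called (0.86, adjusted p = 0.0244 over all genes). Apod, a lipocalin carried on lipoproteins, gave 0.54 (adjusted p = 0.205), and 0.75 without control replicate 2 (adjusted p = 0.0467).

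Fatty acid uptake and trapping genes beside Cd36 had 2 of 11 lower and 0 higher by leading probe set, where 7.78% of all genes were lower. Fabp3, a cytosolic fatty acid carrier, gave -0.75 ± 0.10 (SE, adjusted p = 0.00603), and Cavin1, a coat protein of caveolae, -0.50 ± 0.11 (adjusted p = 0.024, lost without control replicate 1 or 3 or YY1bKO replicate 2 or 3, with adjusted p up to 0.0921). The mean over the Cavin1 probe sets, of which the others are dim, was not called (-0.29, adjusted p = 0.111). Fabp5, a related carrier, gave 0.50 (adjusted p = 0.051), and 0.62 without YY1bKO replicate 2 (adjusted p = 0.0494). The transporter Slc27a1 gave -0.36 (adjusted p = 0.106), and -0.44 without control replicate 2 (adjusted p = 0.0455).

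On the glycerol side 2 of 9 genes were lower beside Aqp7, where 7.78% of all genes were. Pck1, the glyceroneogenesis enzyme that makes glycerol 3-phosphate precursor without using glycerol, was 2.12-fold lower (-1.09 ± 0.16, SE, adjusted p = 0.00807). The mean with its other, dim probe set gave -0.56 (adjusted p = 0.0138). Aqp1, a water channel found in capillary endothelium, was 2.36-fold lower (-1.24 ± 0.23, SE, adjusted p = 0.0147), a call that did not hold without YY1bKO replicate 1 (adjusted p = 0.0596) or 2 (0.0613). Aqp9, another glycerol channel, was dim and gave 0.17 (adjusted p = 0.25), and Gpd1, which makes glycerol 3-phosphate from a glycolytic intermediate, gave -0.19 (adjusted p = 0.372).

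Of 9 measured regulators of these genes 1 was lower, where 7.78% of all genes were. It was Hif1a, the oxygen-sensing factor, with -0.49 (adjusted p = 0.0366, lost without any array except control replicate 2). The mean over the 4 Hif1a probe sets was not called (-0.26, adjusted p = 0.0611). Pparg, the adipocyte nuclear receptor that drives many of these genes, gave -0.19 (adjusted p = 0.53). Rxra, its partner, gave -0.40 (adjusted p = 0.065), and Ppara -0.43 (adjusted p = 0.21). Srebf1, a driver of lipid synthesis genes, gave 0.47 (adjusted p = 0.206).

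**Figure D5:**
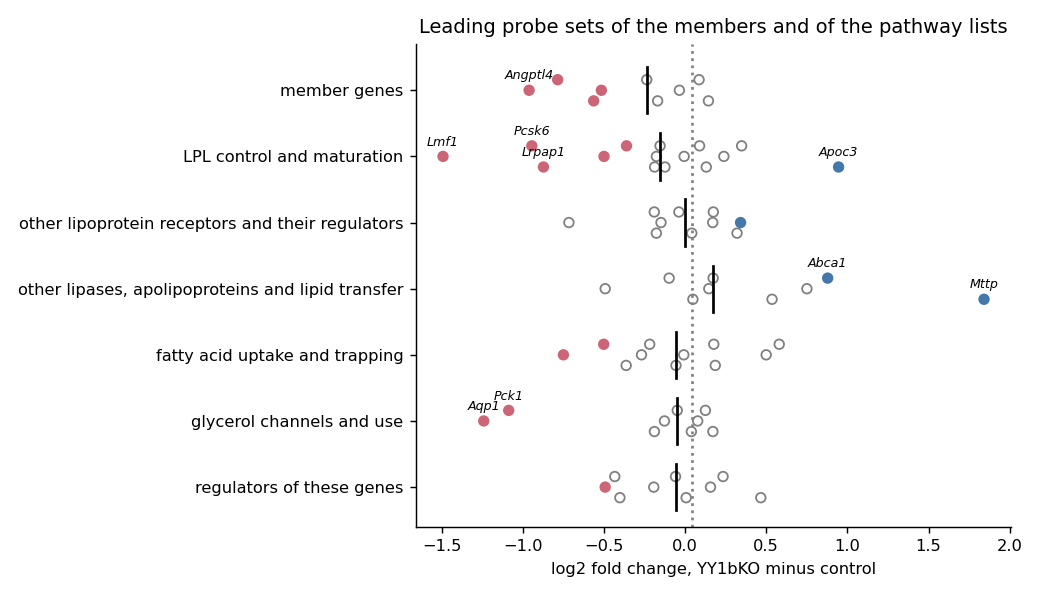
Log2 fold change (horizontal axis) of the leading probe set of each measured gene in the member list and the 6 pathway lists; red and blue points are called lower and higher, open points are not called, black lines are list medians and the dotted line is the median over all genes. Lmf1 lies farthest to the left and Mttp farthest to the right.

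Several members are made by cells other than adipocytes, and markers of those cells were measured beside them. All 15 endothelial markers were measured, 1 of them dim in its leading probe set. By leading probe set 6 were lower and 0 higher, where 7.78% of all genes were lower. All 23 endothelial probe sets had estimates below 0, with a median of -0.46. Of these 23 probe sets, 8 were called lower, where 7.16% of all probe sets were. In 16 every YY1bKO array lay below every control array, which held for 15.1% of all probe sets. The called number was 2 without control replicate 1, 15 without control replicate 2, and 1 to 3 without 1 of the YY1bKO arrays. Over all 22626 probe sets, 811, 2473 and 699 to 773 were called lower in those fits. The summed log2 level of the endothelial markers was 12.67 to 12.97 in control and 12.24 to 12.35 in YY1bKO arrays. Cd36, Vldlr, Lrp1 and Aqp1 are also expressed outside adipocytes, and the part of endothelial transcripts in their falls was not tested.

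Of 14 macrophage markers 1 was lower and 0 were higher, where 7.78% of all genes were lower. The lower one was Cd163 (-0.79, adjusted p = 0.0336, lost without any 1 of the YY1bKO arrays, up to 0.117). The summed log2 level of the 14 markers was 12.53 to 13.33 in control and 13.05 to 13.28 in YY1bKO arrays. Apoe and Pltp, which macrophages also express, showed no called difference beside them. Of 12 skeletal muscle markers 0 were called by limma, 0 also at an unadjusted p under 0.05. Without control replicate 2, 13 of their 16 probe sets were called higher in YY1bKO tissue, with a median log2 fold change of 1.23. In that fit 2607 of all 22626 probe sets were called higher. Muscle also expresses Lpl, Cd36, Vldlr and Fabp3, and the part of muscle transcripts in those values was not tested.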

How the data were processed

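Affymetrix arrays were hybridised with biotin-labelled cRNA made from Trizol-extracted total RNA, per the labels' protocols. The deposited values are intensities on a linear scale, 4.91 to 21219. The submitters' processing notes name RMA, while the version and settings behind it were not among the sources used here. At the level of single probes the method gives the arrays 1 common distribution, which hides a global shift. It also compresses changes of dim probe sets. The number of arrays limits the precision.

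Intensities were log2-transformed with no pseudocount. Of 22690 probe sets, 64 Affymetrix controls were left out. Of the 22626 fitted, 20380 had 1 symbol in the platform annotation, 691 had several and 1555 had none here. The groups were compared by lmFit and eBayes of limma 3.58.1 under R 4.3.3 (2.93 prior and 4 residual degrees of freedom, group as the sole term, two-sided), with Benjamini-Hochberg adjustment over all probe sets, and the threshold for a call was an adjusted p of 0.05. All adjusted p-values are limma's. Intervals and SE are from the moderated fit. The script was tested on simulated data. All member genes were described, and up to 4 genes per pathway list, by smallest p of the leading probe set, with Furin, Apoc1 and Pparg chosen after their values were seen. Promoter windows and gene positions come from RefSeq (GRCm38.p6). The members and lists were chosen with earlier results of these data known. Alternatives were 1 probe set or the mean per gene, a filter on dim probe sets (mean at or below 6.48), quantile normalization, eBayes with trend and robust fitting, weights per array, a block for replicate number, and each array left out in turn.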

Additional observations from a re-analysis of the deposited data

How the results depend on the processing

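Leaving out 1 array moved the count of member probe sets called lower, 8 with all arrays, between 5 and 9, and the count called higher between 0 and 1. For pathway probe sets these counts were 9 to 24 lower and 4 to 9 higher, and over all probe sets 699 to 2473 lower and 808 to 2607 higher. Taking 1 leading probe set per gene gave 4 member, 11 pathway and 1003 genes lower, and 1267 of all genes higher. The mean per gene gave 3, 9 and 924 lower and 1222 higher; fewer features are tested in both. Without dim probe sets 4 pathway probe sets were higher, fewer being tested. Array weights called 2622 of all probe sets lower; the cause was not tested. Same-numbered arrays did not deviate together (r = -0.23, 0.09 and 0.24 for numbers 1, 2 and 3), so the numbers were not taken as pairs. With the replicate block, 6 member probe sets were lower and 1108 of all probe sets higher, and Lrp1 (adjusted p = 0.061), Angptl4 (0.0776), Lrp10 (0.0902) and Cd163 (0.0717) were not called. Scarb1, Fabp5 and Rxra, above the threshold, came below it without dim probe sets (adjusted p = 0.0397, 0.0379 and 0.0472). Scarb1 also came below it with 1 leading probe set per gene (0.0497), trend and robust fitting (0.0413) and array weights (0.00531). It stayed above with quantile normalization (0.0574) and the replicate block (0.0865). No called value of a leading member probe set or a named pathway gene turned its direction in any of these settings. Lipg and the second Angptl4 probe set are dim, which limits what they show.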
